A study of Gallus gallus with 50 samples.

Results

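Motor neurons of the spinal cord that send their axons to 1 muscle form a motor pool. Pools are known to differ in transcription factors, cell adhesion molecules and guidance receptors, which take part in the settling of the cell bodies and in the choice of target. A gene that is transcribed in 1 pool and silent in another would be seen as on in most cells of the first and off in the second. In single-cell libraries, many transcripts of a cell are also missed, so that a gene can read as off in a cell that transcribes it.

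The genes described here are the 100 Ensembl gene IDs, of 20392 in the table, that were on in the largest excess of EMR motor neurons over FDQ motor neurons. EMR and FDQ are the labels of the muscles from which the cells were traced. The embryos were chickens at embryonic day 9, and the labels name no genetic or drug treatment for either muscle. Cells of the spinal cord were filled with a fluorescent tracer through the axon, dissociated with papain, picked singly and read by SMART-seq2, a protocol that amplifies full-length cDNA from polyadenylated RNA. The 32 EMR and 18 FDQ samples are 1 cell each. Since the labels name no embryo, each muscle counts as 1 sample, and no test and no p-value is given.

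The members were chosen in the gene-rich cells, those with a count for at least 5000 gene IDs. These were 16 of the 32 EMR cells and 9 of the 18 FDQ cells. Levels are counts per 1000000 counts of the cell (CPM), and a gene was called on in a cell at 5 CPM or more. IDs were ranked by the share of EMR cells on minus the share of FDQ cells on, with ties broken by the difference in mean log2(CPM + 1), and the first 100 were taken. The other 16 EMR and 9 FDQ cells, here called gene-poor, took no part in the choice. Values in gene-rich cells are therefore a description of what was selected, and those in gene-poor cells are held out.

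The files do not pair the IDs with gene names, and 0 of the 20392 IDs were found in the gene table at hand, which follows another build (GRCg7b). The members are therefore described without names, roles or sequences, by their rank in the list, and only 2 IDs are printed. For the same reason the motor neuron label could not be checked against marker genes.

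Gene-rich cells of the muscles overlapped in depth. Total counts ranged from 2022623 to 11014823 in gene-rich EMR cells and from 4594353 to 8245621 in gene-rich FDQ cells. A median of 6608 gene IDs was on in gene-rich EMR cells and 7225 in gene-rich FDQ cells. Gene-poor cells were shallower by the median total, though totals of the classes overlapped. They had far fewer genes on, with a median of 1131.5 IDs in EMR and 846 in FDQ. Their totals ranged from 36138 to 3908117 counts in EMR and from 61737 to 5735080 in FDQ. In 2 gene-poor cells of each muscle the total was under 200000, so that a single count already made a gene on.

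In the gene-rich cells that chose them, most members were on in some of the EMR cells and not in all. A member was on in a median of 9 of 16 EMR cells, with a range of 6 to 16, and in a median of 1 of 9 FDQ cells, with a range of 0 to 5. The difference in share, EMR minus FDQ, had a median of 45.1 percentage points and ran from 75 points at the first rank to 37.5 at the last. Of the 18062 IDs with a count in a gene-rich cell, 113 (0.626%) reached 37.5 points. Over the same 18062 IDs the mean difference was −4.66 points, toward FDQ.

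The end of the list is not sharp. A total of 23 IDs stood at exactly 37.5 points, on in 6 EMR cells and no FDQ cell, and the tie rule took 10 of them. The members at ranks 96 to 100 had differences in mean log2(CPM + 1) of 1.88 to 1.93. The next 5 IDs, left out, had 1.42 to 1.86.

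Only 2 members were on in all 16 gene-rich EMR cells, and both were also on in 5 of 9 FDQ cells. One of them, at rank 52, ranged from 12.5 to 950 CPM over the EMR cells, with a median of 287 CPM. In the FDQ cells it ranged from 0 to 318 CPM, with a median of 114 CPM, so the muscles overlapped. At rank 53, the other one ranged from 5.19 to 404 CPM in EMR, with a median of 108 CPM. Its FDQ values ran from 0 to 62.7 CPM, with a median of 17.9 CPM, and overlapped the EMR values as well.

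At the other end, 31 members were off in all 9 gene-rich FDQ cells. The choice favours such IDs: among the 7720 IDs on in 6 to 16 gene-rich EMR cells, the range of the members, 44 (0.57%) were off in every gene-rich FDQ cell. Off did not always mean without a read. Of the 31, 7 had no count in any gene-rich FDQ cell, and the others had counts below 5 CPM in at least 1. Over all members and gene-rich FDQ cells, 63.1% of the values were 0, 22.4% were above 0 but under 5 CPM, and 14.4% were on. In gene-rich EMR cells these shares were 29.1%, 11.1% and 59.75%.

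The level of the members was described in the cells where they were on. In the gene-rich EMR cells where a member was on, its median level ranged from 6.81 to 287 CPM over the members, with a median of 30.5 CPM. Over the 7720 IDs on in 6 to 16 gene-rich EMR cells, the same median was 47.1 CPM. These IDs were on in a median of 11 EMR cells and the members in a median of 9, so the sets are not matched. CPM here is not corrected for transcript length, so these values do not rank transcripts by copies. The cell with most counts of a member held a median of 25.9% of the member's counts over the gene-rich EMR cells, against 21.6% for the 7720 IDs. A single cell held over 50% of them for 9 of the 100 members and for 2.88% of the 7720 IDs.

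Each gene-rich EMR cell had part of the list on, from 32 to 91 members with a median of 59. Gene-rich FDQ cells had 8 to 30 members on, with a median of 13. The groups did not overlap in this count, a separation that the choice of the members builds in. Within EMR, the cells with more members on were those with more genes on. Pearson's r between members on and all gene IDs on was 0.894 over the 16 EMR cells, and Spearman's rho was 0.857. Both counts come from the same libraries and share their depth. The cell with 91 members, E14, also had the most IDs on, 8998, and the cell with 32, E6, had 4560.

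The FDQ cell F8 stood apart from the other 8 gene-rich FDQ cells. It had 30 members on, where the others had 8 to 18, and 14 of its 30 were on in no other gene-rich FDQ cell. Members took 0.552% of its counts, against 0.0229% to 0.0959% in the others and 0.152% to 1.39% in gene-rich EMR cells. Its leading member, at rank 8, had 1378 CPM and held 25.0% of its member counts. F8 was also less like the gene-rich cells of both muscles than the other gene-rich FDQ cells were. Over 17862 other IDs, its median Spearman correlation was 0.577 to EMR cells and 0.597 to FDQ cells. The other FDQ cells had medians of 0.637 to 0.703 to EMR and 0.669 to 0.762 to FDQ. When the list was drawn again without F8, 75 of the 100 members remained. Leaving out each of the other gene-rich FDQ cells in turn kept 71 to 81, so F8 was not special in this.

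**Figure D1:**
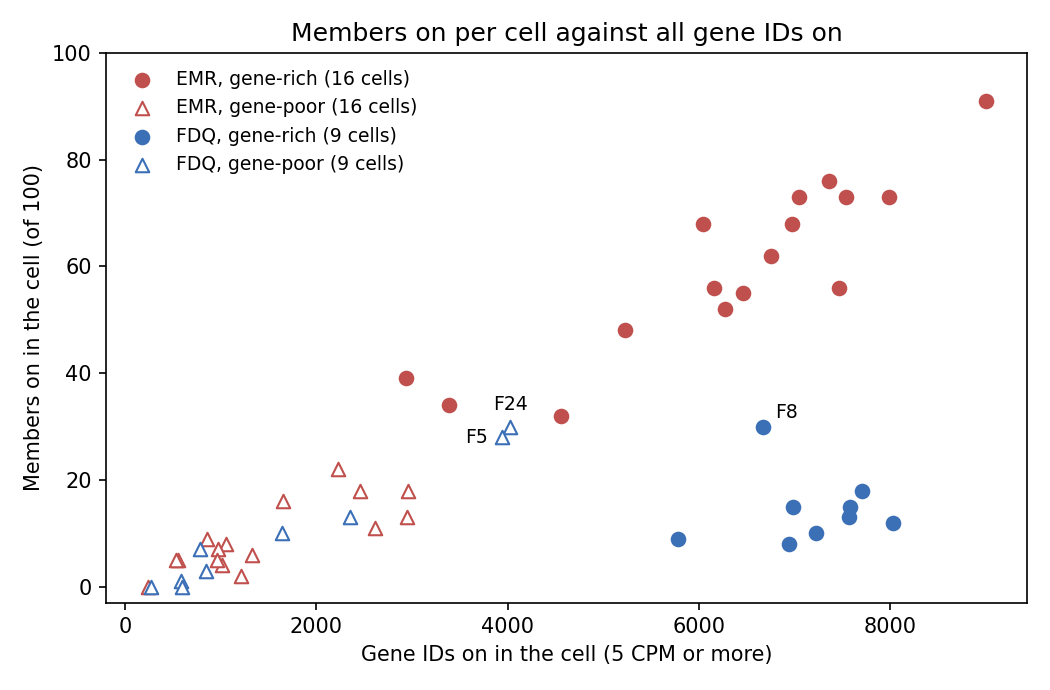
Number of members on (vertical axis, of 100) against the number of all gene IDs on (horizontal axis, at 5 CPM or more) in each of the 50 cells, with filled circles for gene-rich and open triangles for gene-poor cells, red for EMR and blue for FDQ. The gene-rich muscles separate, as the choice of members requires, with FDQ cells at 8 to 30 and EMR cells at 32 to 91. Gene-poor cells of both muscles overlap, at 0 to 22 in EMR and 0 to 30 in FDQ.

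The gene-poor cells asked whether the excess in EMR is also seen in cells that did not choose the list. For the list as a whole, the share of members in the EMR direction was near or below that of other genes. Of the 100 members, 36 were on in a larger share of gene-poor EMR than FDQ cells, 43 in a smaller share and 21 in an equal share. The 21 equal members were those off in all gene-poor cells of both muscles. With 16 EMR and 9 FDQ cells, a member on in 1 cell of each muscle counts among the smaller shares. Among the 7720 IDs on in 6 to 16 gene-rich EMR cells, 46.2% had a larger share in EMR, 44.4% a smaller one and 9.34% an equal one. Among all 13882 IDs with a count in a gene-poor cell, 40% had a larger and 44.4% a smaller share. The 36 are 41.9% of the 86 members that had such a count, and the 43 are 50% of them.

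In size too, the difference was near 0. The median over the members was 0 percentage points, with quartiles of −8.68 and 6.25, and the mean was −0.91 points. For the 7720 IDs the median was 0 as well, with quartiles of −9.72 and 7.64 and a mean of −0.243 points. A member was on in a mean of 9.31% of gene-poor EMR cells and 10.2% of gene-poor FDQ cells. In gene-rich cells, where the list was chosen, these means were 59.75% and 14.4%. The 7720 IDs had means of 16.05% in gene-poor EMR cells and 16.3% in gene-poor FDQ cells, and of 70.2% and 77.6% in the gene-rich cells of EMR and FDQ.

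A higher place in the list did not go with a larger held-out difference. Of the first 25 members, 9 were on in a larger share of gene-poor EMR cells and 13 in a smaller share. For ranks 26 to 50 these counts were 7 and 13, for ranks 51 to 75 they were 12 and 8, and for ranks 76 to 100 they were 8 and 9. The medians of the 4 groups were −4.86, −2.08, 0 and 0 points.

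**Figure D2:**
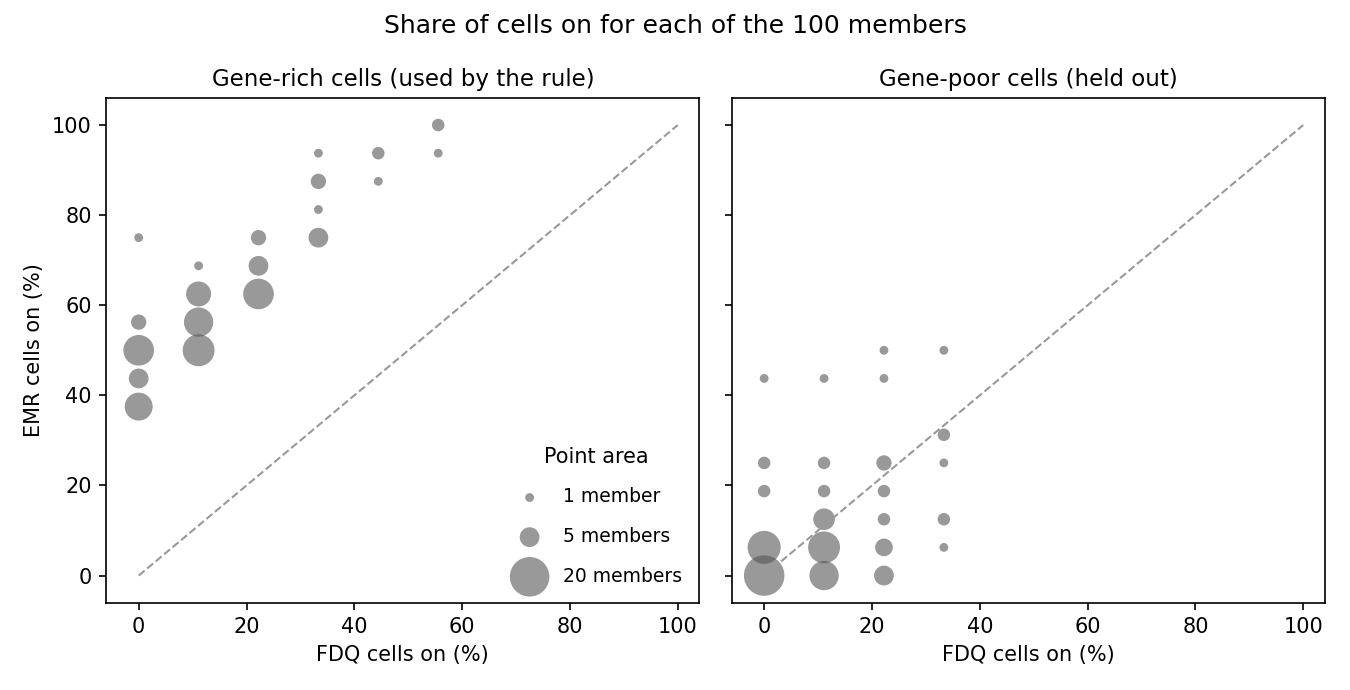
Share of FDQ cells on (horizontal axis, percent) and of EMR cells on (vertical axis, percent) for each member, in gene-rich cells at left and gene-poor cells at right, with the area of a point proportional to the number of members at that place and a dashed line of equal shares. All members lie above the line at left, by the rule. At right 36 lie above it, 43 below it and 21 at the origin.

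Of the 31 members that were off in all 9 gene-rich FDQ cells, 12 (38.7%) had a larger share on in gene-poor EMR cells, 10 a smaller and 9 an equal share. Among the 44 IDs on in 6 to 16 gene-rich EMR cells and off in all gene-rich FDQ cells, of which these 31 are the greater part, 36.4% had a larger share in gene-poor EMR cells. Of the 31 members, 19 (61.3%) were also off in every gene-poor FDQ cell, and 10 of these 19 were on in at least 1 gene-poor EMR cell. The share off in every gene-poor FDQ cell was 56.8% for the 44 IDs.

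Per cell, the number of members on was similar in gene-poor FDQ and gene-poor EMR neurons. The count of members on ranged from 0 to 22 in gene-poor EMR cells, with a median of 7.5, and from 0 to 30 in gene-poor FDQ cells, with a median of 7. Since the cells differ in how many genes they have on, the count was also set against all IDs on. Per 1000 IDs on, gene-rich EMR cells had a median of 9.43 members, with a range of 7.02 to 13.3, and gene-rich FDQ cells 1.72, with a range of 1.15 to 4.50. In gene-poor cells the medians were 6.64 in EMR, with a range of 0 to 10.5, and 5.53 in FDQ, with a range of 0 to 8.86. On this scale the gene-poor groups overlapped, with higher quartiles in EMR, 4.36 and 9.06, than in FDQ, 1.72 and 7.10. The gene-rich groups did not overlap, which the choice of the members builds in.

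The FDQ cells F24 and F5 carried many of the held-out observations in FDQ. F24 had 30 members on among 4027 IDs on, and F5 had 28 among 3944. All gene-rich FDQ cells had more IDs on than these, and those other than F8 had at most 18 members on. The choice of the members keeps that number low in gene-rich FDQ cells, so it is no measure for F24 and F5. Per 1000 IDs on, F24 had 7.45 members on and F5 had 7.10, while F7 had 8.86. Over the gene-poor FDQ cells, members on followed all IDs on, with a Spearman's rho of 0.954. Of the members, 10 were on in both F24 and F5 and 48 in at least 1. That overlap was not taken over other IDs. A total of 31 members were on in some other gene-poor FDQ cell. Without F24 the number of members with a larger share in gene-poor EMR cells was 40, beside 46.8% of the 7720 IDs. This was the highest number when any gene-poor cell was left out.

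Summed expression in gene-poor cells, in which deep cells weigh most, did not favour EMR either where both sums held counts. Counts were present in both sums for 59 members, in the EMR sum alone for 19, in the FDQ sum alone for 8 and in neither for 14. Counts in 1 sum alone were not split by muscle for other IDs, so the 19 and 8 have no background. The log2 ratio of summed CPM, EMR over FDQ, had a median of −0.85 over the 59, with quartiles of −4.60 and 0.90. Over the 7262 IDs with counts in both sums it was −0.57, so the members are to be read against a general shift toward FDQ on this scale. With a floor of 3 counts over the group for a sum of 0, the median over the 83 members above the floor in at least 1 sum was −0.36. That median was not taken over other IDs. Of the 59 members, 14 (23.7%) were at least 2-fold higher in EMR and 28 (47.5%) at least 2-fold lower, against 26.3% and 43.6% of the 7262 IDs. The median of the 59 moved to −2.19 when the EMR cell E27 was left out. In E27 the member at rank 33 held 63.0% of the member counts.

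The first member of the list, ENSGALG00000054431, was the clearest in gene-rich cells and did not repeat in gene-poor cells. In the 16 gene-rich EMR cells it ranged from 0 to 144 CPM, with a median of 21.1 CPM. It was on in 12 of these cells (75%, exact 95% interval 47.6% to 92.7%) and had no count in the other 4. In the 9 gene-rich FDQ cells the highest value was 2.30 CPM, in F21, and it was on in none (exact upper limit 33.6%). Among the 16 gene-poor EMR cells none had it on (exact upper limit 20.6%), and its highest value was 3.64 CPM, in E30. Among the 9 gene-poor FDQ cells it had 659 CPM in F24 and 0 counts in the other 8. The single highest value of this ID in the study thus came from an FDQ cell.

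ENSGALG00000007361, at rank 25, was the member with the largest held-out difference, and it was picked for that value. In gene-rich EMR cells it was on in 8 of 16 cells (50%, exact 95% interval 24.7% to 75.3%), with a highest value of 241 CPM in E23 and a median of 4.02 CPM. In gene-rich FDQ cells it was on in 0 of 9, with 2.13 CPM in F12 and 1.79 CPM in F21 as the highest values. In gene-poor EMR cells it was on in 7 of 16 (43.75%, 19.8% to 70.1%), and 9 cells had a count. The highest value there was 662 CPM, in E1, and the median over the 16 cells was 1.67 CPM. In gene-poor FDQ cells no cell had a count (0 of 9, exact upper limit 33.6%), where 3 cells of 9 would be 33.3%.

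Summed over gene-poor cells, ENSGALG00000007361 had 95.6 CPM in EMR, with an exact Poisson interval of 91.6 to 99.6 at 95%, and 0 in FDQ. The exact upper limit of the FDQ level is 0.212 CPM. Against a floor of 3 counts over the FDQ group, the EMR level was 553-fold higher. That floor is a slightly lower level than the exact upper limit, so the ratio is not a lower limit of the difference. Summed over gene-rich cells it was 41.4 CPM in EMR and 0.423 CPM in FDQ. E31 held 45.3% of the gene-poor EMR counts, and without it the gene-poor EMR level was 57.5 CPM and the ratio to the floor 332.9-fold. In gene-rich cells, E23 held 38.0% of the EMR counts. Over gene-rich and gene-poor cells, this ID was on in 15 EMR cells of 32 and in no FDQ cell of 18. EMR cells with it off are found in both classes. The intervals of both printed IDs treat reads or cells as independent draws and leave out differences between embryos. Both IDs were picked for some of these shares, and there the intervals do not have their stated coverage.

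**Figure D3:**
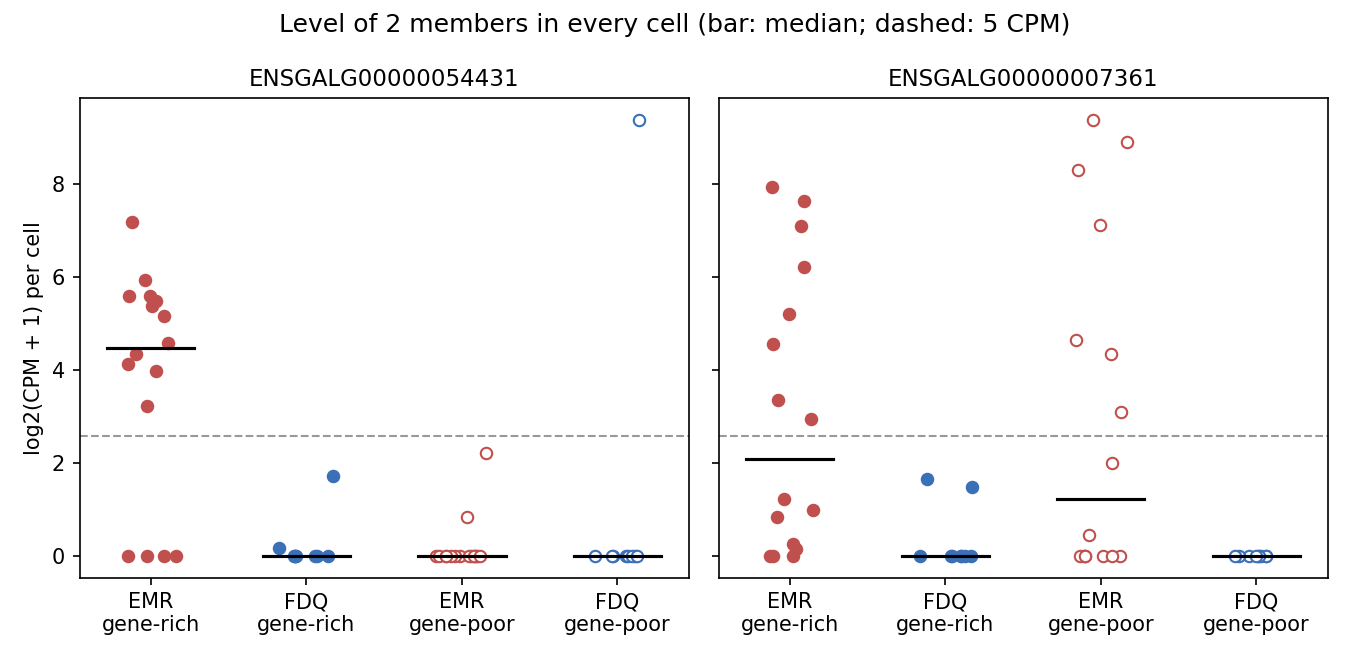
Level of the 2 printed IDs in each cell as log2(CPM + 1) on the vertical axis, by muscle and by class, gene-rich or gene-poor. Bars are at the median and a dashed line is at 5 CPM. ENSGALG00000054431 lies above the line in 12 gene-rich EMR cells and otherwise only in the gene-poor FDQ cell F24. ENSGALG00000007361 lies above it in 8 gene-rich and 7 gene-poor EMR cells and in no FDQ cell.

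A few further members held the EMR direction in gene-poor cells, chosen here after their values were seen. One, at rank 8, was on in 14 of the 16 gene-rich EMR cells and in 3 of the 9 FDQ cells of that class. In gene-poor cells it was on in 7 EMR cells and 1 FDQ cell, a difference of 32.6 points. Only this member and ENSGALG00000007361 differed by more than 30 points toward EMR in gene-poor cells. The share of other IDs past 30 points was not taken, so this number has no background. Its summed level in gene-poor cells was 237 CPM in EMR and 138 CPM in FDQ. The highest single values were 6063 CPM in E10, a cell with 45027 counts in all, and 571 CPM in F24. Both members that were on in every gene-rich EMR cell kept that direction. The one at rank 52 was on in 7 of the 16 gene-poor EMR and 2 of the 9 gene-poor FDQ cells, and the one at rank 53 in 4 and 0 of them.

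Others of the first ranks were sparse in gene-poor cells. The member at rank 2 was on in 15 of 16 gene-rich EMR cells, and in gene-poor cells in 2 EMR cells and 1 FDQ cell. At rank 3, a member ranged up to 2380 CPM in gene-rich EMR cells and was on in 11 of them. In gene-poor cells it was on in 3 EMR cells and 1 FDQ cell, with 4328 CPM in E1 and 124 CPM in F24 as the highest values of the muscles. No count of the member at rank 6 was found in any gene-poor cell, although it was on in 9 of 16 gene-rich EMR cells.

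Sparse detection was common to most of the list. In gene-poor EMR cells 37 members were on in no cell, 42 in 1 or 2 cells and 21 in 3 to 8 of the 16. In gene-poor FDQ cells 40 were on in no cell, 35 in 1, 18 in 2 and 7 in 3 of the 9. Such counts were not made for other IDs. The 7720 IDs, which are not matched to the members, were also sparse. They were on in a mean of 16.05% of gene-poor EMR and 16.3% of gene-poor FDQ cells, beside 9.31% and 10.2% for the members. The member that stood furthest toward FDQ, at rank 68, was on in 1 EMR cell and 3 FDQ cells, a difference of −27.1 points. It reached 108 CPM in E9 and 168 CPM in F24, and in gene-rich cells it had been on in 10 of 16 EMR and 2 of 9 FDQ cells.

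Whether the members form a program that is on together was described within the EMR cells, since the choice used how many EMR cells were on for each ID and not which ones. They were no more co-expressed than other genes. Over the 4950 pairs of members, Spearman's rho of CPM across the 16 gene-rich EMR cells had a median of 0.1, with quartiles of −0.1 and 0.29. Over the 29795340 pairs of the 7720 IDs on in 6 to 16 gene-rich EMR cells, the median was 0.1004, with quartiles of −0.0958 and 0.292. A rho below 0 was found for 37.1% of the member pairs and 36.5% of the others. A rho of at least 0.7 was reached by 40 member pairs (0.808%), against 0.9% of the pairs of the 7720 IDs. All pairs share the same 16 libraries, with their depths.

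**Figure D4:**
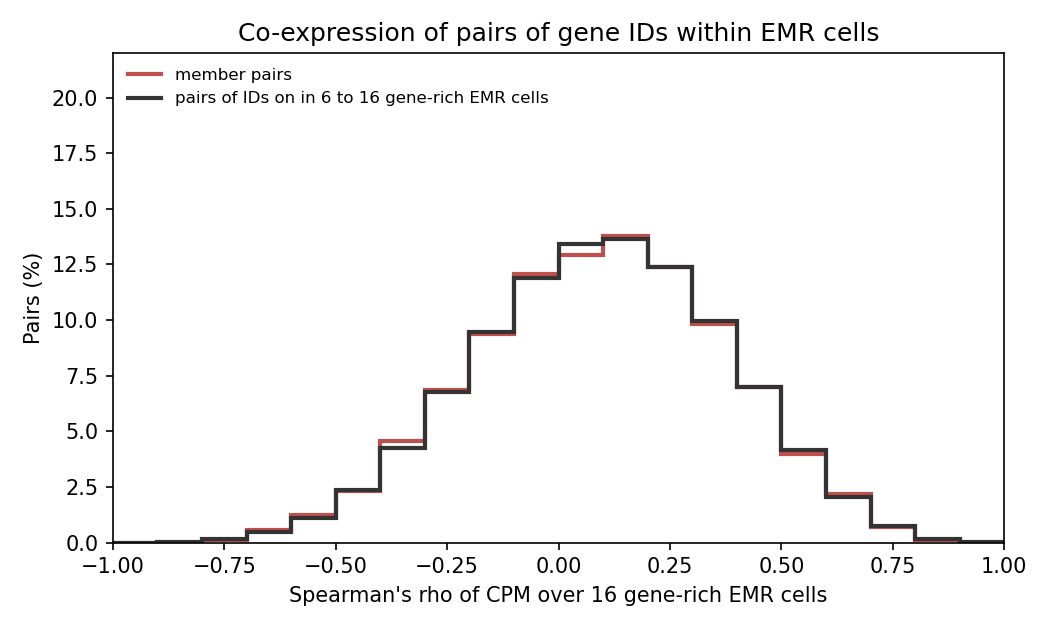
Distribution of Spearman's rho of CPM over the 16 gene-rich EMR cells (horizontal axis, bins of 0.1) as the percent of pairs (vertical axis), for the 4950 pairs of members in red and for the 29795340 pairs of IDs on in 6 to 16 gene-rich EMR cells in black. The curves lie nearly on each other, with medians of 0.1 and 0.1004.

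Patterns of single members across the EMR cells were nearly all different. The 100 members had 98 distinct on-off patterns over the 16 cells, and no pattern was shared by more than 2 members. Linked at a rho of at least 0.7, 24 members formed the largest chain, with 27 of the 276 possible pairs past that value, and 54 members had no partner. Patterns and chains were not counted for other IDs, so these values do not set the members apart from them. The closest pair, at ranks 47 and 82, had a rho of 0.897. In gene-rich EMR cells both were on in 7, only the first in 2, only the second in 1 and neither in 6. In gene-poor EMR cells both were on in 1 cell, only the first in 3 and only the second in 7. This pair was picked for its high rho, so a weaker pairing in other cells says little about the list. Among the next closest pairs, those at ranks 32 and 39, 72 and 86, and 23 and 47 were on together in 0 gene-poor EMR cells. The pair at ranks 43 and 82 was on together in 3.

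Pairs could be followed into the gene-poor EMR cells for the 21 members that were on in at least 3 of those cells. Over their 210 pairs the median rho was 0.116 in gene-rich and 0.13 in gene-poor EMR cells. The 23 pairs with a rho of at least 0.5 in gene-rich cells had a median of 0.162 in gene-poor cells, beside the 0.13 of all 210. Of the 23, 15 were above 0 there. The share above 0 was not taken over the 210 pairs or over other IDs, so the 15 have no background. Across the 210 pairs, which are not independent, Pearson's r between the rho in gene-rich and in gene-poor cells was 0.0503.

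Genes with a profile like that of the printed IDs were sought over all IDs with a count in a gene-rich cell, of which the members are 0.554%. Of the 5 IDs closest to ENSGALG00000054431 by Spearman's rho over all 25 gene-rich cells, 1 was a member, with rho of 0.748 to 0.807 for the 5. Of the 5 closest to ENSGALG00000007361, 0 were members, with rho of 0.668 to 0.743. The members were chosen in these same 25 cells, which makes them alike there. The numbers of members among the closest IDs are therefore a description and no sign of co-expression.

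The mirrored choice, the 100 IDs on in the largest excess of FDQ cells, was compared in one respect. Its differences in gene-rich cells were larger, from 52.8 to 88.9 points toward FDQ with a median of 57.6, against 37.5 to 75 with a median of 45.1 toward EMR for the members. In gene-poor cells, 33 of the mirrored IDs were on in a larger share of FDQ cells, 23 in a smaller and 44 in an equal share. Their median was 0 points. Among all 13882 IDs with a count in a gene-poor cell, 44.4% had a larger share in FDQ and 40% a smaller one. The 100 mirrored IDs were not filtered for such a count, so these shares do not have the same base. The difference between the lists was not tested.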

How the data were processed

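The deposited table holds raw read counts per Ensembl gene ID and cell, as the authors left them, with no normalization. Per the submitters' processing notes, the build was GRCg6a and the tools were HTSeq 0.6.1, STAR 2.5.2 and Trimmomatic 0.39, with no role stated for any of them. Annotation, strandedness and the handling of multi-mapped reads were not given in the sources used here, which leaves overlapping and near-identical genes uncertain. Reads carry no molecular identifiers. Every column matched 1 sample, and 0 columns were identical.

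CPM was the count divided by the column sum, times 1000000. Cell groups came from the sample titles. No doublet caller was run, as cells were picked singly, and cells were not clustered. Intervals are exact (Clopper-Pearson for shares, Poisson for sums). No test was made, because embryos are not labelled. The calculation of the list and of the held-out summary was run on simulated counts with planted differences larger than those of the members. Gene-poor cells were simulated with the same shares on as gene-rich cells. That check therefore does not show whether real gene-poor cells, with far fewer genes on, could reveal a difference. The members, and the rule for printed IDs (the first member, and the one with the largest held-out difference among members on in at most 1 gene-poor FDQ cell), were chosen with earlier results of these data known. Marker lists need gene names and were not used. Alternatives changed the threshold for on, the cells, the depth by thinning (seed 1), the scaling (edgeR 4.0.16 TMM, DESeq2 1.42.0 size factors), the filter and the measure of correlation. Python 3.11.15, scipy 1.17.1 and R 4.3.3 were used.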

Additional observations from a re-analysis of the deposited data

Results flagged for a closer look

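Groups of 4 to 10 cells were screened for an extreme cell, highest or lowest, whose gap to its neighbour is large for the group's range. The screen flags about 1 in 20 groups by chance only where values are normally distributed. In a group where a single cell has a count, that cell is always flagged. In gene-rich FDQ cells the choice of the members keeps these values low, so the rate of 1 in 20 does not apply there. Of 10 combinations of group and measure, 5 were flagged. Among gene-rich FDQ cells, F8 was flagged for the number of members on (30), for members per 1000 IDs on (4.50) and for the percent of counts in members (0.552%). These 3 measures overlap in what they count, and F8 also had the lowest likeness to other cells among gene-rich FDQ cells, whose part in this was not tested. Among gene-poor FDQ cells, F24 was flagged for ENSGALG00000054431, with 659 CPM where the other 8 cells had 0. Among gene-rich FDQ cells, F21 was flagged for the same ID with 2.30 CPM, from 18 counts, which is under the threshold for on.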

How the results depend on the processing

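The held-out count of 36 of 100, beside 46.2% of the 7720 IDs, moved with the scaling and the threshold. It was 48 beside 53.7% with TMM, 47 beside 54% with DESeq2 size factors and 46 beside 51.7% at 1 CPM. On at a count of 1 or more, chosen after seeing the data, gave 47 beside 54.8%. The other 5 settings over all members gave 29 to 38, beside 31.7% to 46.5%. Of the 53 members with a count in at least 3 gene-poor cells, 24 had a larger share in EMR. That filter was not applied to other IDs, so the 24 have no background. Leaving out each gene-poor cell gave 27 to 40. The 27 was seen without E7, beside 42.8% of the 7720 IDs, and without F9, F11, F13 or F20, beside 35.6% to 36.6%. The 40 was seen without F24, beside 46.8%. The median difference was 0 points in each case but the filter of at least 3 gene-poor cells, where it was −3.47 points. The median log2 ratio of sums was −1.30 to −0.24 under other settings and −2.19 to −0.64 without single cells. TMM scaling gave −0.24, and moved the median of all IDs from −0.57 to 0.05.

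The list itself depended on the settings. Of the 100 members, 56 were kept at 1 CPM, 58 at 10 CPM, 29 at 20 CPM, 60 after thinning to 200000 counts and 54 when ranked by mean log2(CPM + 1). Leaving out each gene-rich cell kept 71 to 92. The median rho of member pairs was 0.0747 with DESeq2 size factors, beside 0.0513 for the 7720 IDs, and 0.0928 beside 0.0876 after thinning. With Pearson's r of log2(CPM + 1) the median was 0.120 beside 0.157. With the phi coefficient of on and off at 5 CPM it was 0.126 beside 0.2. Without single EMR cells the median rho of member pairs was 0.069 to 0.108. The causes were not tested. No paired analysis was possible because replicate numbers only name cells here, and nothing was tested. The 16 and 9 cells limit the shares: a member on in 0 of 9 cells has an exact upper limit of 33.6%.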
